A study of Homo sapiens with 6 samples.

Results

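The p53 pathway target genes examined here are 30 genes chosen by name from a working list of established p53 targets, out of 58735 genes in the deposited count table. They were chosen with earlier results of these data known, and all 30 were found once by gene symbol. Their levels were compared between 3 control samples and 3 samples with ADAR1 knocked down by siRNA (siADAR1). ADAR1 deaminates adenosine in double-stranded RNA to inosine. Every sample was KYSE410, a line derived from a squamous cell carcinoma of the oesophagus, grown in RPMI with serum. The controls are titled NC and carry the genotype wild type, and all 6 samples list no treatment and the same batch number. The labels do not say whether the controls received a non-targeting siRNA, which siRNA was used, for how long, or whether replicates were separate cultures. The p-values therefore rest on sample-to-sample spread that may be technical only, and the knockdown cannot be told apart from the transfection that delivered it.

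p53 is a transcription factor that is stabilised by DNA damage and other stresses and binds a pair of decamer motifs near its target genes. Its targets include brakes on p53 itself, such as MDM2, and genes for cell cycle arrest, DNA repair, metabolism and cell death. Several of them also respond to other inputs. SESN2 and GDF15 are induced by ATF4, the transcription factor of the integrated stress response, and were separated from the other 28 members. In squamous epithelium the related factor p63 shares part of the programme. Gene counts do not show whether p53 protein was active.

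Library totals ran from 15175619 to 17329443 counts, and 15294 genes had enough counts to be tested. Levels are given as CPM, counts scaled to a common library size. ADAR was at 20% of control in siADAR1 (log2 fold change -2.32 ± 0.09, SE). The libraries numbered 1 stood apart. Their second principal component scores were 36.1 (control) and 15 (siADAR1), while the remaining controls scored -19.6 and -13.3 and the remaining siADAR1 libraries -8.07 and -10. Among 10 squamous epithelial markers KRT17, TP63 and DSC3 had the highest counts, while KRT14 had at most 2 counts in a library and SPRR1B had 0. The 10 together summed to 563 to 616 CPM in control and 707 to 754 CPM in siADAR1, and of 8 tested 3 rose and 3 fell. The markers of leukocytes summed to 0.460 to 0.808 CPM in control and 0.255 to 0.451 CPM in siADAR1, with CD3E and LYZ among those at 0. Fibroblast markers summed to 40.0 to 57.7 CPM in control and 71.8 to 84.1 CPM in siADAR1, with LUM and COL1A1 tested and both higher, and DCN at 0. Endothelial markers summed to 1.05 to 2.15 CPM in control and 0.677 to 1.33 CPM in siADAR1, with KDR at 0. The part of these shifts in the results below was not tested, and in bulk RNA fewer cells of a type and less RNA per cell cannot be told apart.

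The promoter sequences of the members are given first, because these genes are known for p53 binding near their starts. RefSeq start-site windows on GRCh38.p14, from 250 bases before to 50 bases after the start, were matched by symbol for 24 of the 30 members (33 windows). No window was available for GADD45A, RRM2B, ASCC3, TP53INP1, PHLDA3 and FBXO22, so these members were not searched for any motif. The 33 windows were searched on both strands for the p53 consensus decamer pair, with a spacer of at most 1 base and at most 3 mismatches in all. Such a pair was present in 10 of the 33 member windows, from 8 of the 24 genes, and in 9.75% of all 35116 windows. Of the 10, 2 are overlapping MDM2 windows that hold the same sites. DDB2 had 0 mismatches, MDM2 and AEN had 2 at best, and SESN1, FDXR, GDF15, XPC and SPATA18 had 3. These sites are shown so that they can be set beside the call of each gene. Each is written 5′ to 3′ on the strand of its gene, with the pair in capitals between up to 4 flanking bases. The MDM2 sites lie before an internal start, the promoter known to respond to p53.
DDB2, chr11:47214975-47215003, plus strand: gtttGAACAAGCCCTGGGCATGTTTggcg
MDM2, chr12:68808919-68808946, plus strand: agctGGTCAAGTTCAGACACGTTCcgaa
MDM2, chr12:68808957-68808984, plus strand: aaggAGTTAAGTCCTGACTTGTCTccag
AEN, chr15:88621302-88621329, plus strand: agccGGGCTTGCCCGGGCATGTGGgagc
SESN1, chr6:109009014-109009041, minus strand: gtctGGACAAGTCTCCACAAGTCAgaaa
FDXR, chr17:74872992-74873019, minus strand: gcccGGGCAGGAGCGGGCTTGCCCtgcg
FDXR, chr17:74868739-74868767, minus strand: atcgGAAGAACCTCAGAGAATGTCCttgt
GDF15, chr19:18386182-18386207, plus strand: gcacAGCCATGCCCGGGCAAGAACtc
XPC, chr3:14178566-14178593, minus strand: agtgGAATTTGCCCAGACAAGCAAcatg
SPATA18, chr4:52051170-52051198, plus strand: tgagAGCCTAGCCCCAAACTTCTATagag

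Of these 8 genes AEN, GDF15 and XPC rose in siADAR1, SESN1 and FDXR fell, DDB2 and MDM2 did not pass the test, and SPATA18 was too low to be tested. Of all tested genes 26.0% rose and 25.0% fell, so calls in both directions are not particular to genes with a pair. The composite element bound by ATF4 with C/EBP factors, searched as TGATGNAAN on both strands, was in the window of 1 of the 24 members, PLK3. It began 133 bases before the start and is shown in capitals, with 4 flanking bases on each side.
PLK3, chr1:44800240-44800256, plus strand: tgggTGATGTAAGgccg
This element was in 3.61% of all windows and in those of 9 of 26 matched genes of an ATF4 list described below. The first share is per window and the second per gene, which can have several windows, so they are not on the same scale. The cyclic AMP element TGACGTCA was in the windows of EPHA2 and PPM1D and in 1.85% of all windows. A match is a string of letters, not a measured binding site, and windows without one may have sites elsewhere.

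The p53 target genes did not move as a block, and all tested genes also split in both directions. Of 29 members that were tested, 10 rose, 7 fell and 12 did not pass at an adjusted p below 0.05 (edgeR quasi-likelihood test, adjusted over all tested genes). In all 58.6% of tested members were called, where 51.0% of all tested genes were called. The share that rose was 34.5% against a background of 26.0%, and the share that fell was 24.1% against 25.0%. Without SESN2 and GDF15, 8 of 27 rose and 7 fell, or 29.6% and 25.9%, close to the 26.0% and 25.0% of all tested genes. The median log2 change of these 27 was 0.14. It fell to 0.08 without control replicate 3, 0.09 without siADAR1 replicate 1 and 0.07 without both libraries numbered 1. The median over all 29 was 0.16, or 0.08 without both libraries numbered 1, and that over all tested genes was 0.00. For 19 of the 29 every CPM of one group lay beyond every CPM of the other, or 65.5%, against 60.3% of all tested genes. Scaling by library totals alone gave all genes a median of 0.12. The members then split into 13 higher and 5 lower (72.2% of calls higher, from 58.8%), and all genes into 4892 higher and 2887 lower.

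**Figure D1:**
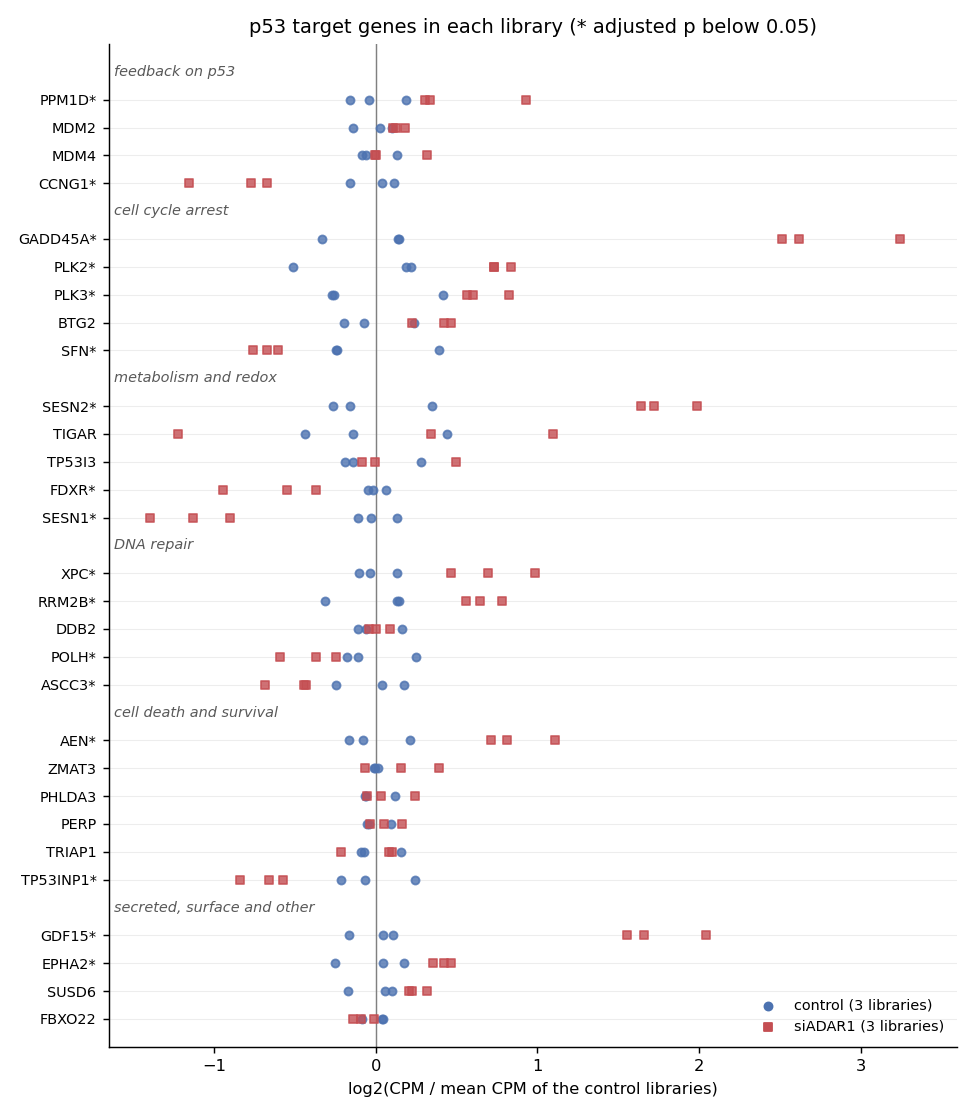
Level of each of the 29 tested p53 target genes in each library, as log2 of its CPM over the control mean, with circles for the 3 control and squares for the 3 siADAR1 libraries. Genes are grouped by role, and an asterisk marks an adjusted p below 0.05; GADD45A, SESN2 and GDF15 lie farthest to the right and SESN1 and CCNG1 farthest to the left among the called genes.

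GADD45A, SESN2 and GDF15 stood above every other member in the size of their rise. GADD45A (ENSG00000116717, chromosome 1, 67685061 to 67688338, GRCh38) encodes a stress sensor that binds cell cycle and repair proteins, and is known to be induced by p53 as well as by other stress factors, ATF4 among them. It was at 94.4, 131 and 131 CPM in control replicates 1 to 3 and at 1128, 731 and 678 CPM in siADAR1. All 3 siADAR1 libraries lay far above all controls, with replicate 1 the highest. The mean went from 119 ± 21.2 to 846 ± 246 CPM (SD, n = 3 each), a log2 fold change of 2.83 ± 0.24 (SE) or 7.12-fold, with an edgeR adjusted p of 8.17e-05. Without both libraries numbered 1 it was 2.43.

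SESN2 and GDF15 rose by nearly equal amounts. SESN2 (ENSG00000130766, chromosome 1, 28259527 to 28282491), which encodes sestrin 2, a leucine-binding inhibitor of mTORC1 signalling, was at 40.2, 26.3 and 28.2 CPM in control and at 126, 104 and 98.8 CPM in siADAR1. Its log2 fold change was 1.79 ± 0.15 (SE; edgeR adjusted p = 2.68e-06). GDF15 (ENSG00000130513, chromosome 19, 18374731 to 18389176), which encodes a secreted stress cytokine of the TGF-beta superfamily, was at 32.8, 27.1 and 31.5 CPM in control and 126, 96.1 and 89.3 CPM in siADAR1. Its log2 fold change was 1.77 ± 0.13 (SE; edgeR adjusted p = 6.04e-07). Neither gene's groups overlapped, and siADAR1 replicate 1 was again the highest library for both.

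**Figure D2:**
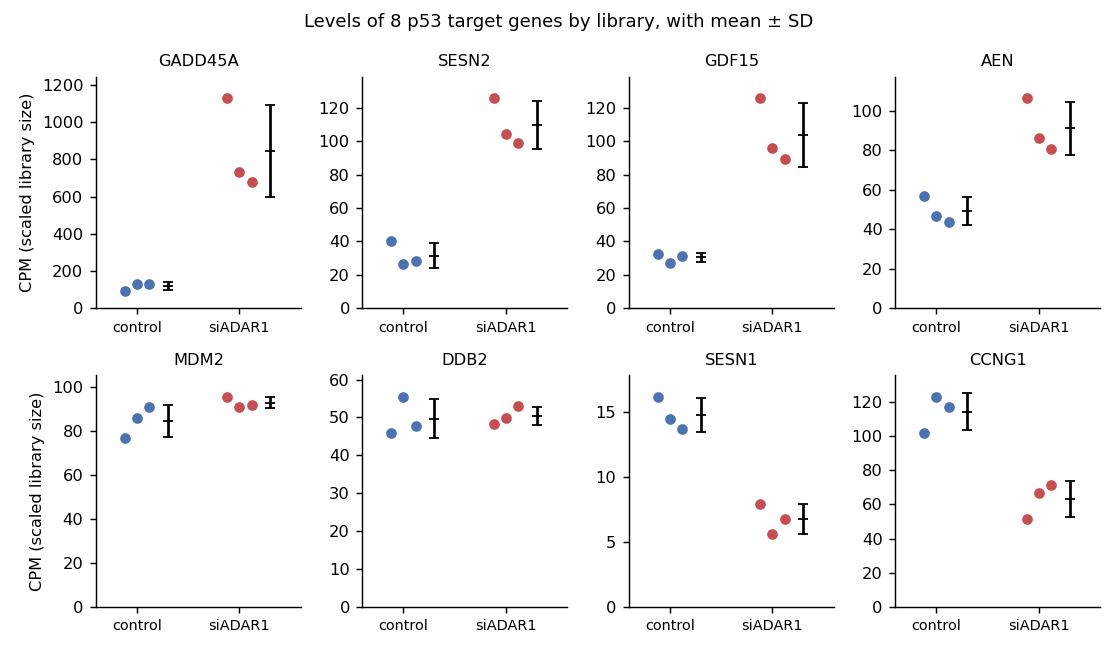
CPM in each library for 8 p53 target genes on linear axes from 0, with points for the 3 libraries of a group and a bar for the mean ± SD. GADD45A, SESN2, GDF15 and AEN were higher in all 3 siADAR1 libraries, SESN1 and CCNG1 lower, and the DDB2 groups overlapped, while for MDM2 the highest control was at 90.86 CPM and the lowest siADAR1 library at 90.91 CPM.

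Among the genes that feed back on p53, the best known did not pass. MDM2 (ENSG00000135679), the ubiquitin ligase that degrades p53, was at 76.7, 86.2 and 90.9 CPM in control and 95.8, 90.9 and 92.1 CPM in siADAR1. The groups were barely apart, with control replicate 3 at 90.86 and siADAR1 replicate 2 at 90.91 CPM, and the log2 fold change was 0.14 ± 0.09 (SE; edgeR adjusted p = 0.237), with a limma-voom 95% interval of -0.06 to 0.34. With library totals alone it was 0.25 and passed (adjusted p = 0.0364). MDM4, the partner of MDM2 that blocks p53 activity, was at 36.5 to 42.5 CPM in control and 38.6 to 48.2 CPM in siADAR1, with overlapping groups and an interval of -0.15 to 0.37. PPM1D, the phosphatase WIP1 that reverses p53 activation, rose from 17.7, 13.9 and 15.1 CPM to 29.7, 19.7 and 19.3 CPM, by 0.56 ± 0.18 (SE; adjusted p = 0.0183). Leaving out siADAR1 replicate 1 took PPM1D to 0.32 (adjusted p = 0.0972), and leaving out control replicate 2 or 3 to 0.48 and 0.52 (0.0761 and 0.0637). CCNG1, cyclin G1, which recruits a phosphatase to MDM2, went the other way. It was at 102, 123 and 117 CPM in control and 51.2, 66.9 and 71.5 CPM in siADAR1, with no overlap and a log2 fold change of -0.86 ± 0.12 (SE; adjusted p = 9.13e-05).

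Of the 5 genes for cell cycle arrest, 3 rose and 1 fell, or 80.0% called where 51.0% of all tested genes were. Besides GADD45A, the polo-like kinase genes PLK2 and PLK3, which act in centriole duplication and stress signalling, rose. PLK2 was at 95.6, 158 and 155 CPM in control and 226, 226 and 243 CPM in siADAR1, a log2 fold change of 0.77 ± 0.17 (SE; edgeR adjusted p = 3.77e-03). PLK3 was at 32.14, 19.99 and 20.1 CPM in control and 42.6, 36.5 and 35.7 CPM in siADAR1, a log2 fold change of 0.67 ± 0.17 (adjusted p = 6.07e-03). Control replicate 1 lay apart from the other controls for both, low for PLK2 and high for PLK3. SFN, the 14-3-3 sigma protein of stratified epithelia that holds cells before mitosis, fell from 254, 164 and 163 CPM to 127, 121 and 114 CPM (log2 fold change -0.68 ± 0.16, SE; adjusted p = 4.46e-03). Without control replicate 1, which was the highest, its value was -0.45 and the call held (adjusted p = 5.75e-04). BTG2, an antiproliferative cofactor of mRNA deadenylation, did not pass: its log2 fold change was 0.37 ± 0.16 (SE; edgeR adjusted p = 0.0711). It passed with library totals alone (0.49, adjusted p = 0.0227), without control replicate 1 (0.50, adjusted p = 0.0226) and without both libraries numbered 1 (0.48, adjusted p = 0.0168).

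The members for metabolism and redox balance diverged. SESN1 (ENSG00000080546, chromosome 6, 108986437 to 109094819), the paralog of SESN2, was at 16.2, 14.5 and 13.7 CPM in control and 7.895, 5.602 and 6.738 CPM in siADAR1. Every siADAR1 library was below every control, with a log2 fold change of -1.13 ± 0.17 (SE; edgeR adjusted p = 1.34e-04), or 2.19-fold lower. FDXR, the ferredoxin reductase of mitochondrial iron-sulfur and steroid synthesis, fell from 25.0 ± 1.05 to 16.5 ± 3.22 CPM (SD, n = 3 each), a log2 fold change of -0.60 ± 0.15 (SE; adjusted p = 4.71e-03). TP53I3, a quinone oxidoreductase, had overlapping groups at 36.5 to 50.6 CPM in control and 39.2 to 58.7 CPM in siADAR1 (log2 fold change 0.16 ± 0.17, SE). TIGAR, a fructose bisphosphatase that slows glycolysis, was among the lowest members, at 0.657 to 1.21 CPM in control and 0.382 to 1.91 CPM in siADAR1. Its interval of -1.09 to 1.34 does not exclude a change of 2-fold in either direction, and its siADAR1 counts of 20, 6 and 30 differed widely.

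The ratio of paralogs within a library showed how far the sestrin genes parted. The log2 ratio of SESN2 to SESN1 counts was 1.31, 0.86 and 1.05 in control and 3.99, 4.21 and 3.87 in siADAR1, a difference of 2.95 with no overlap. A two-sided exact permutation test over the 6 libraries gave p = 0.1, the smallest it can give with 3 against 3, and 0.3 when adjusted over the 3 ratios tested. The MDM2 to MDM4 ratio was 1.13 ± 0.24 in control and 1.16 ± 0.15 in siADAR1 (SD, n = 3 each; exact permutation p = 0.9). The PLK2 to PLK3 ratio was 2.50 ± 0.80 in control and 2.60 ± 0.18 in siADAR1 (exact permutation p = 1.0), with control replicate 1 at 1.57 against 2.98 and 2.94. For both of these pairs the sign of the difference turned when control replicate 1 was left out, to -0.11 and -0.36.

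**Figure D3:**
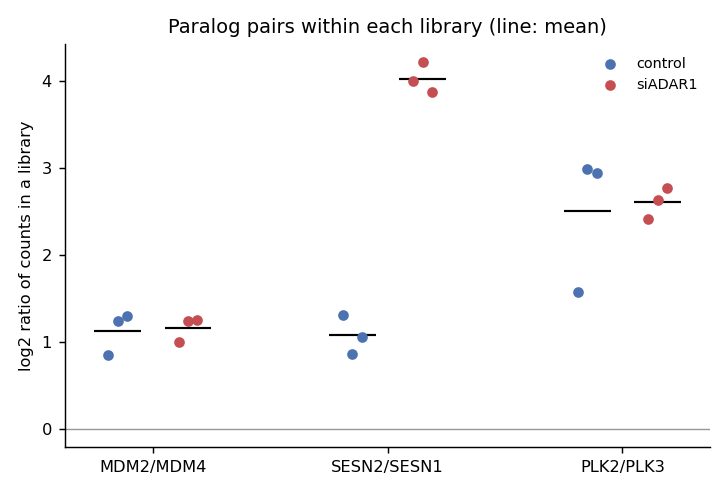
Log2 ratio of the counts of paralogous p53 target genes in each library, with points for the 3 libraries of a group and a line for their mean. The SESN2 to SESN1 ratio was between 0.86 and 1.31 in control and between 3.87 and 4.21 in siADAR1, while the groups overlapped for the other 2 pairs.

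Of 5 DNA repair genes 2 rose and 2 fell, again 80.0% called against 51.0%. RRM2B, a subunit of ribonucleotide reductase that supplies deoxynucleotides outside S phase, rose from 36.0, 49.4 and 49.0 CPM to 76.9, 70.2 and 66.0 CPM (log2 fold change 0.67 ± 0.13, SE; edgeR adjusted p = 7.07e-04). XPC, which recognises helix-distorting lesions in nucleotide excision repair, rose from 16.1, 16.9 and 18.9 CPM to 34.18, 28.01 and 23.9 CPM (0.73 ± 0.15, SE; adjusted p = 1.08e-03). XPC overlaps LSM3 on the other strand by 426 bases, and the mean count of LSM3 went from 1323 to 752. DDB2, which acts in the same recognition step and carries the decamer pair without mismatches, was at 46.0, 55.5 and 47.6 CPM in control and 48.3, 49.9 and 52.9 CPM in siADAR1. Its groups overlapped, and its log2 fold change of 0.02 ± 0.11 (SE) had a limma-voom 95% interval of -0.20 to 0.25. ASCC3, a helicase of alkylation repair and stalled ribosomes, fell from 199 ± 28.8 to 139 ± 13.5 CPM (SD, n = 3 each; -0.52 ± 0.11, SE; adjusted p = 1.88e-03). POLH, the polymerase that copies past ultraviolet lesions, fell by 0.40 ± 0.14 (SE; adjusted p = 0.0333). That call was lost without control replicate 1 (-0.26, adjusted p = 0.113), siADAR1 replicate 2 (-0.41, 0.0732) or siADAR1 replicate 3 (-0.30, 0.147), and with library totals alone (-0.28, 0.125). POLH overlaps GTPBP2 on the other strand by 10345 bases, and the mean count of GTPBP2 went from 1625 to 3458. No strand-marking step is described for these libraries, so reads in shared bases cannot be told apart.

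Among 6 genes for cell death and survival, 1 rose, 1 fell and 4 did not pass, or 33.3% called against 51.0%. AEN, a nuclease that degrades DNA and RNA in apoptosis, was at 57.1, 46.7 and 44.0 CPM in control and 106, 86.3 and 80.7 CPM in siADAR1. The groups were far apart, with a log2 fold change of 0.89 ± 0.13 (SE; edgeR adjusted p = 8.59e-05). TP53INP1, a cofactor of p53 and of autophagy, fell from 4.55 ± 0.75 to 2.83 ± 0.26 CPM (SD, n = 3 each; -0.68 ± 0.24, SE; adjusted p = 0.0299). This gene had 70.3 counts in the mean control library. Omitting any 1 library other than control replicate 1 ended its call (-0.55 to -0.73, adjusted p from 0.0513 to 0.118). The gene also lost the call with library totals alone (-0.57, 0.0658), but kept it without both libraries numbered 1 (-0.80, 0.0197). Its whole length of 23440 bases lies within NDUFAF6 on the other strand, whose mean count went from 240 to 330 while that of TP53INP1 went from 70.3 to 46.3. PERP, a desmosomal membrane protein, PHLDA3, an inhibitor of AKT, TRIAP1, which transfers lipids in mitochondria, and ZMAT3, an RNA-binding protein, had overlapping groups and log2 fold changes between -0.00 and 0.18. Their limma-voom 95% intervals lay within -0.30 and 0.43.

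EPHA2, an ephrin receptor kinase, was among the most abundant members and rose from 321, 395 and 433 CPM to 490, 529 and 513 CPM (log2 fold change 0.42 ± 0.10, SE; edgeR adjusted p = 3.99e-03). SUSD6, a membrane protein, had groups that did not overlap but did not pass (0.25 ± 0.11, SE; adjusted p = 0.0824). It passed without both libraries numbered 1 (0.31, adjusted p = 0.0171) and with library totals alone (0.37, adjusted p = 0.016). FBXO22, a subunit of a ubiquitin ligase, had a log2 fold change of -0.08 ± 0.10 (SE). SPATA18, which acts in mitochondrial quality control, had 3, 6 and 0 counts in control and 0 in each siADAR1 library. It was too low to be tested, and no fold is given.

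siADAR1 replicate 1 was the highest siADAR1 library for 8 of the 10 members that rose. The same held for 66.5% of all genes that rose. It was the lowest for 2 of the 7 members that fell, and for 65.2% of all genes that fell. With both libraries numbered 1 left out, 12 members rose and 7 fell.

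Per length, the members spanned a wide range of levels. In control the deposited FPKM (fragments scaled by gene length and library size) was highest for SFN, at 145 ± 39.0 (SD, n = 3), followed by EPHA2 at 91.2 ± 13.7, PERP at 75.3 ± 4.57 and GADD45A at 56.9 ± 10.2. SFN and EPHA2 differed by more than either SD, EPHA2 and PERP by little more than 1 SD of EPHA2. In siADAR1 GADD45A was the most abundant, at 404 ± 118 FPKM, ahead of EPHA2 at 121 ± 4.70 and SFN at 90.5 ± 4.94. At the other end SESN1 was at 2.86 ± 0.25, TP53INP1 at 0.79 ± 0.13 and TIGAR at 0.22 ± 0.07 FPKM in control. SESN2 was 1.64 log2 units above SESN1 in control and 4.60 above it in siADAR1 on this scale. MDM2 was at 6.31 ± 0.54 FPKM in control and 6.91 ± 0.19 in siADAR1.

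**Figure D4:**
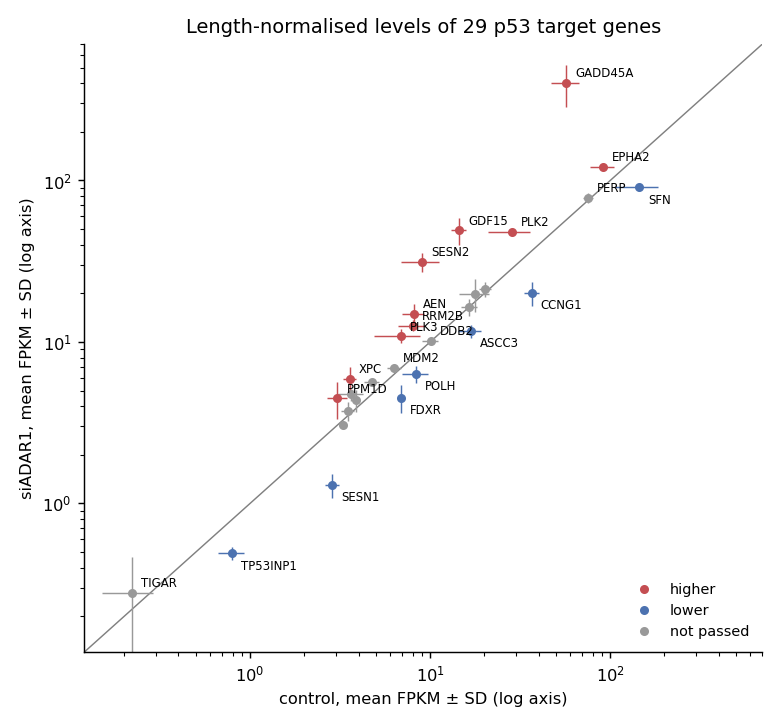
Mean deposited FPKM of 29 p53 target genes in control (x) and siADAR1 (y), both on log axes, with SD bars over 3 libraries, the line of equal level and colours for the call on counts. SPATA18, listed at 0 in siADAR1, is left out; GADD45A lies farthest above the line and SESN1 farthest below it.

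Other genes of the pathway were counted from lists, which were chosen with earlier results of these data known. Of 66 other established p53 targets 59 were tested, of which 22 rose and 17 fell. Their median was 0.05 on the log2 scale, 0.08 without control replicate 3 or siADAR1 replicate 3 and 0.03 without siADAR1 replicate 2. The called share was 66.1% against 51.0% of all tested genes. CDKN1A, which encodes the cyclin-dependent kinase inhibitor p21, went from 227 ± 5.12 to 368 ± 12.6 CPM (SD, n = 3 each), a rise of 0.70 ± 0.08 (SE; edgeR adjusted p = 9.32e-06). The smallest p among those that rose belonged to PRKAB2, a subunit of the AMP-activated kinase (1.18 ± 0.09, SE), PMAIP1, the BH3-only protein NOXA (1.55 ± 0.12), and PRDM1, a transcriptional repressor (2.42 ± 0.21). Among those that fell it belonged to TNFRSF10D, a decoy receptor for TRAIL (-1.19 ± 0.11), APAF1, the scaffold of the apoptosome (-1.02 ± 0.13), and TP53I13 (-0.92 ± 0.13).

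Of 29 genes that act on p53, all tested, 9 rose and 8 fell, or 31.0% and 27.6% against 26.0% and 25.0% of all tested genes. Their median log2 change was 0.03, and it turned to -0.04 without control replicate 1 or siADAR1 replicate 2 and to -0.02 without control replicate 2. TP63, which encodes p63, went from 124 ± 12.7 to 174 ± 16.5 CPM (SD, n = 3 each), a rise of 0.48 ± 0.10 (SE; edgeR adjusted p = 1.47e-03). RCHY1, a ubiquitin ligase for p53, rose by 1.30 ± 0.14. PPP1R13B and PPP1R13L, which encode the p53-binding proteins ASPP1 and iASPP, rose by 1.12 ± 0.14 and 0.58 ± 0.08. PRKDC, the DNA-dependent protein kinase, had a log2 fold change of -0.96 ± 0.11, KMT5A, a methyltransferase for histone H4 and p53, of -0.55 ± 0.09, and DAXX, an MDM2 partner, of -0.46 ± 0.10. Omitting control replicate 2 gave 5 that fell, as did scaling by library totals.

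Genes of the ATF4 programme and immediate early genes were counted in the same way, from lists also chosen with earlier results known. Their shares are therefore not an independent comparison with the members. Of 33 tested genes of the ATF4 programme, SESN2 and GDF15 left out, 21 rose and 4 fell, with a median of 0.92. That is 63.6% higher and 12.1% lower, against 26.0% and 25.0% of all tested genes. The median was 0.68 without siADAR1 replicate 1, 1.07 without siADAR1 replicate 3 and 0.70 without both libraries numbered 1. ADM2, a peptide hormone gene, rose by 4.22 ± 0.24 (SE), DDIT3, which encodes CHOP, by 2.31 ± 0.13 and CHAC1, which degrades glutathione, by 2.82 ± 0.17, while the mRNA of ATF4 itself rose by 0.24 ± 0.09 (edgeR adjusted p = 0.0374). SLC7A5, an amino acid transporter, had a log2 fold change of -1.05 ± 0.08, ATF5 of -0.55 ± 0.15 and VLDLR of -0.51 ± 0.16. Only 2 of the list fell when siADAR1 replicate 3 was omitted, and 2 when library totals alone set the scale. Of 28 tested immediate early genes, a class to which BTG2, PLK2 and PLK3 also belong, 16 rose and 1 fell, with a median of 1.22. These are 57.1% higher and 3.57% lower, against 26.0% and 25.0% of all tested genes. KLF10 rose by 3.11 ± 0.11, IER2 by 1.63 ± 0.09 and KLF4 by 2.26 ± 0.15, and IER5 had a log2 fold change of -0.30 ± 0.09. Omitting control replicate 1 gave 3 that fell, and omitting siADAR1 replicate 3 gave 2. ATF3 is in both lists.

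**Figure D5:**
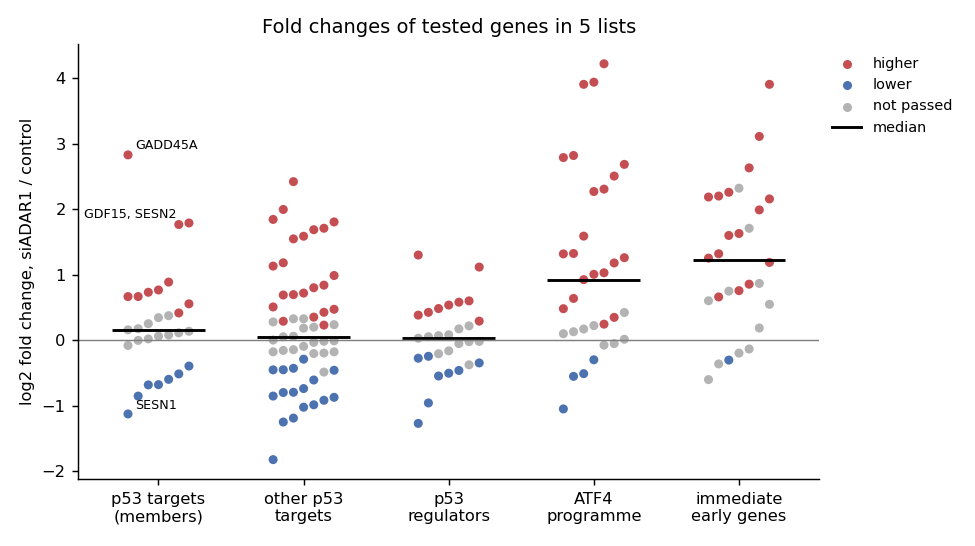
Log2 fold change of every tested gene in the p53 target list and 4 related lists, coloured by call, with a line at the median of each list. The medians were 0.16 for the p53 targets, 0.05 for other p53 targets, 0.03 for genes that act on p53, 0.92 for the ATF4 programme and 1.22 for immediate early genes.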

How the data were processed

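RNA sequencing of polyadenylated RNA was used from 6 libraries, 3 control and 3 siADAR1, grouped by sample title. The deposited counts are whole numbers for each gene and were not normalized, as their values show, and the deposited FPKM values carry a library factor set by the authors. Per the submitters' processing notes, which give no roles, the authors' tools included HISAT2 2.0.5, fastp and CASAVA. For the counting tool and genome build the sources used here give no name; all 58735 gene coordinates equal those of GENCODE 29 on GRCh38. Authors' group means were not used.

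The count analysis used edgeR 4.0.16 under R 4.3.3: filterByExpr with a minimum count of 10, TMM scaling (factors 0.957 to 1.05), and the robust two-sided quasi-likelihood test of group, with Benjamini-Hochberg adjustment over 15294 genes and a threshold of 0.05. CPM use the scaled library sizes, and the SE is the log2 fold change over the root of the F statistic. Reads carry no molecular identifiers. Libraries of the same group differed beyond sampling error (chi-square per degree of freedom 3.95 to 18). Alternatives were other size factors, DESeq2 1.42.0, limma-voom and limma-trend on FPKM (limma 3.58.1), other filters, the replicate number as a block, and left-out libraries. The members and lists were chosen with earlier results of these data known. Named were all members, and for each other list the 3 genes with the smallest p in each direction, with ADAR, TP63 and CDKN1A; ATF4 was added for its list. Some items that the rule names are not reported here. A paralog ratio is the log2 of counts plus 0.5.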

Additional observations from a re-analysis of the deposited data

How the results depend on the processing

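Fold changes and counts were recomputed under 17 alternatives, and the paralog ratios under those that apply to them. Of 17 called members 6 kept their call in all of them (GADD45A, SESN2, GDF15, AEN, SESN1 and CCNG1), 11 lost it in at least 1, and 0 reversed, while 3 members not called passed in at least 1. For 8 of the 11 (RRM2B, XPC, FDXR, PLK2, PLK3, SFN, ASCC3 and EPHA2) the call was lost with log2(FPKM + 1) and no filter only, at values close to the main ones (0.78 against 0.77 for PLK2, -0.65 against -0.68 for SFN, and 0.59 against 0.73 for XPC, which moved most). TP53INP1, PPM1D and POLH lost it in 10, 6 and 7 alternatives, every FPKM setting among them. For TP53INP1 they also included no filter on low counts (-0.69, edgeR adjusted p = 0.0545). With library totals alone the member median was 0.28, and the numbers lower were 5 for genes that act on p53, 2 for the ATF4 programme and 0 for immediate early genes. With log2(FPKM + 1) and no filter 4 members were higher and 2 lower (2 and 2 without SESN2 and GDF15), 9 other p53 targets were lower, 4 genes that act on p53 were higher and 5 lower, and 1 ATF4 gene was lower. In that setting the median was 0.59 for the ATF4 programme, 0.84 for immediate early genes and 0.0 for other p53 targets. The immediate early genes that fell numbered 2 with DESeq2, limma-voom or no filter, and 3 without both libraries numbered 1. The cause of these moves was not tested.

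Leaving out 1 library at a time gave 9 to 11 members higher and 5 to 6 lower, with medians of 0.11 to 0.22, or 7 to 9 higher and 5 to 6 lower without SESN2 and GDF15, with medians of 0.08 to 0.17. It gave 20 to 25 other p53 targets higher and 14 to 18 lower, 7 to 9 genes that act on p53 higher and 5 to 8 lower, 20 to 23 ATF4 genes higher and 2 to 4 lower, and 14 to 17 immediate early genes higher and 1 to 3 lower. The log2 ratio differences ranged from 2.84 to 3.07 for SESN2 to SESN1, from -0.11 to 0.12 for MDM2 to MDM4 (-0.01 without siADAR1 replicate 2 or 3) and from -0.36 to 0.34 for PLK2 to PLK3.

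Replicate numbers were not taken as pairs, because same-numbered deviations correlated at 0.251, 0.0844 and 0.106 and not all pairs passed 0.1. The libraries numbered 1 did deviate together, at 0.251. Their values with other numbers, -0.169 to -0.13, are not separate evidence, because deviations from a group mean cancel within each group. In contrast, siADAR1 replicate 2 correlated best with control replicate 2 while control replicate 2 correlated best with siADAR1 replicate 3 (0.0917). With the replicate number as a block 11 members were higher and 7 lower, 26 and 17 other p53 targets, 10 and 9 genes that act on p53, 23 and 4 ATF4 genes, and 21 and 3 immediate early genes. BTG2 passed under the block (0.38, adjusted p = 0.0379). TIGAR, TP53INP1 and SPATA18 had the fewest counts of the members.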
